A study of Sus scrofa with 6 samples.

Results

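Cytosolic ribosomal protein genes encode the proteins of the large (RPL) and small (RPS) subunits of the cytosolic ribosome. They were taken as the rows of the deposited count table whose pig symbol is RPL or RPS followed by a number and at most 1 letter A, L or X, together with RPLP0, RPLP1, RPLP2 and RPSA. S6 kinases and mitochondrial ribosomal proteins were left out. This gave 54 of 35670 identifiers, 26 of the large and 28 of the small subunit, each with a different symbol. A further 25 RefSeq symbols of the pig that fit the same pattern, such as RPS6, RPS19 and RPL39, matched no identifier and were not analysed here. The samples were 6 stranded mRNA libraries from primary cultures of Sus scrofa granulosa cells, the somatic cells around the oocyte, drawn from small ovarian follicles. Cells grown toward confluence in medium with fetal bovine serum were then held for 6 h at 42 °C (heat, 3 libraries) or 37 °C (control, 3 libraries), and the series asks how heat changes gene expression in them. The labels call the libraries of a group biological replicates without saying that they came from separate animals or cultures, so p-values measure only the spread between these libraries.

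Ribosomal proteins are needed in equal numbers, since each ribosome holds a single copy of most of them. Their messenger RNAs begin with a terminal oligopyrimidine (TOP) tract, through which TOR signalling and the RNA-binding protein LARP1 adjust their translation and stability. Free ribosomal proteins, RPL5 and RPL11 above all, bind the p53 inhibitor MDM2 when ribosome assembly fails. In dividing cells these messages are among the most abundant of all.

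Library totals lay between 20411952 and 29606378 counts in heat and between 18711440 and 22599356 in control. Heat 1 and heat 2 were alike (Pearson correlation 0.991 across 14242 tested genes, log2 CPM), as were control 2 and control 3 (0.990). Heat 3 stood apart from the other heat libraries (0.916 and 0.909), and control 1 from the other controls (0.901 and 0.905). Each of them was nearest to the other (0.920). Genes are not independent replicates, so these correlations describe likeness only. Of the markers that define granulosa cells, FSHR had 2 reads over the heat libraries and 70 over the controls, AMH had 13 and 4, and INHA had 2 and 8. Of 12 matched granulosa markers, 6 had enough reads to be tested: CDH2, INHBA, CYP11A1, GATA4, NR5A2 and KRT8.

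Ribosomal protein messages differed several-fold between libraries of the same group, and the difference between the groups was smaller than that spread. The 54 matched genes took 0.518, 0.498 and 1.79% of all counts in heat 1, 2 and 3. In control 1, 2 and 3 they took 0.477, 1.64 and 1.94%. The 25 symbols that matched no identifier are not in these shares. The 95% Wilson intervals of these shares, which cover counting error only, were narrow, for example 0.495 to 0.501% in heat 2 and 0.474 to 0.480% in control 1. By this measure heat 3 lay with control 2 and control 3, and control 1 lay with heat 1 and heat 2, so the groups overlapped. The means were 0.936 ± 0.742% in heat and 1.35 ± 0.774% in control (SD, n = 3 each). Among counts of genes with a symbol outside the mitochondrial protein genes, the shares were 0.645, 0.604 and 2.22% in heat 1, 2 and 3. In control 1, 2 and 3 they were 0.707, 2.49 and 2.97%. Control 1 was then above heat 1 and heat 2, and heat 3 below control 2 and control 3, but the groups still overlapped. The difference between the group means was -0.90 percentage points, against -0.42 over all counts. In bulk RNA, fewer cells with a high level and less of these messages per cell cannot be told apart.

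**Figure D1:**
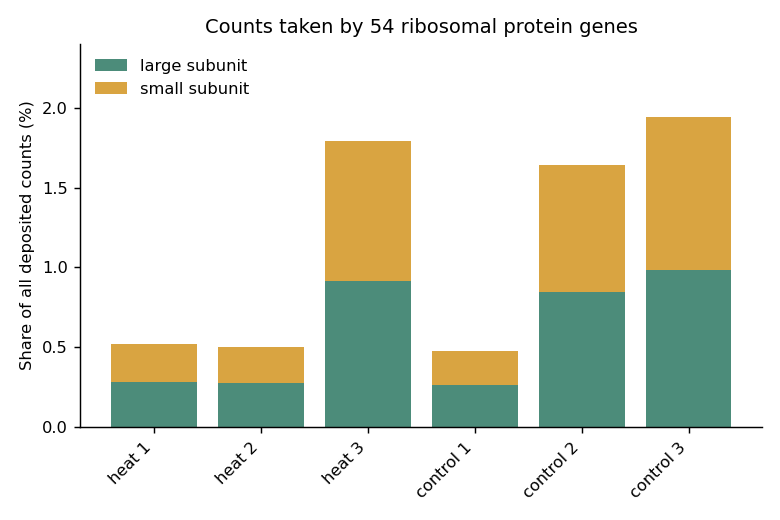
Share of all deposited counts (%, linear axis from 0) taken by the large-subunit (lower segment) and small-subunit (upper segment) genes in each library. The bars of heat 1, heat 2 and control 1 reach 0.518, 0.498 and 0.477%, and those of heat 3, control 2 and control 3 reach 1.79, 1.64 and 1.94%.

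Of the 54 genes, 52 had enough reads to be tested. RPL10L, known in mammals as a testis-expressed retrocopy of RPL10, had no read in any library, and RPL3L, known as the striated-muscle paralog of RPL3, had 5 reads, all in heat 2 and heat 3. None of the 52 passed edgeR's quasi-likelihood test with Benjamini-Hochberg adjustment over all genes, and none had an unadjusted p below 0.05, against 33.9% of all tested genes. DESeq2 and limma-voom also called 0 of 52. Of all tested genes DESeq2 called 14.9% higher and 12.6% lower, and limma-voom 7.41% and 5.14%. Of all 14242 tested genes the edgeR test called 11.0%, 6.71% higher in heat and 4.32% lower. The adjusted p-values of the 52 lay between 0.226 for RPS27L and 0.993 for RPS3. In no ribosomal protein gene did all heat libraries lie below all controls or above them, against 16.8% and 20.9% of all tested genes.

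Most estimates were below 0, none of them past the test. The log2 fold change (heat over control) was negative in 45 of 52 genes, against 47.9% of all tested genes, and its median was -0.57 with a median SE of 0.65. The median of all tested genes was 0.05. Large-subunit genes had a median of -0.57 (24 genes) and small-subunit genes one of -0.57 (28 genes), with 22 and 23 of them below 0. Single members ran from -1.23 for RPS27L to 0.35 for RPL28, and the plot of fold changes shows 50 of them with their SE. Without heat 3 the median was -1.45 and 16 of 52 were called lower, against 17.7% of the genes tested in that fit. With control 1 and heat 3 both left out, which keeps only the alike pairs, all 52 were called lower, but so were 38.4% of all genes, and another 41.2% were called higher. Leaving out any other single library gave no call among the 52. Of all genes tested without control 1, 19.6% were called higher and 12.3% lower. Only 7 genes of any kind were called without heat 1 and 6 without heat 2, and none without control 2 or control 3. The lack of calls in those 4 fits therefore says little about the 52. The median was -0.93 without control 1, -0.30 without control 3, -0.27 without heat 1 and -0.24 without heat 2.

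**Figure D2:**
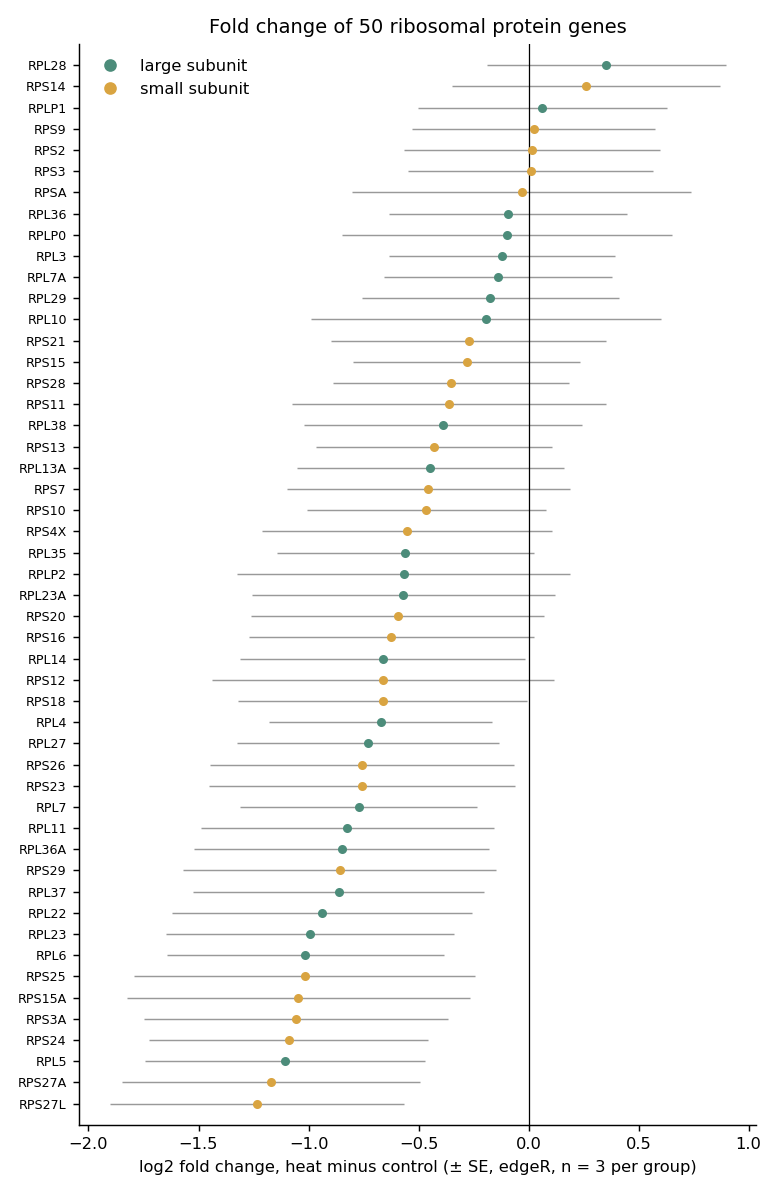
Log2 fold change (heat minus control) of 50 of the 52 tested genes on the horizontal axis, with bars of 1 SE from edgeR (n = 3 per group), sorted from highest to lowest. Estimates run from 0.35 for RPL28 to -1.23 for RPS27L, and 44 of the 50 shown lie left of 0.

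Within each group the genes shared the same high and low libraries. Control 1 was below both other controls in all 52 genes, against 46.1% of all tested genes, and heat 3 was above both other heat libraries in all 52, against 46.6%. The median member stood in control 1 at 32.0% of the mean of control 2 and control 3, and the mean of heat 1 and heat 2 stood at 29.3% of heat 3. Over all tested genes these medians were 97.4% and 100.3%. Control 1 was below 50% of the other controls in 46 members, against 17.3% of all tested genes, and heat 1 and 2 averaged below 50% of heat 3 in all 52, against 17.2%. The alike pairs were much closer, with a median ratio of heat 1 to heat 2 of 1.14 (range 0.953 to 1.34) and of control 2 to control 3 of 0.896 (range 0.777 to 0.994). Between the groups, heat 3 was above control 1 in all 52 members, against 53.8% of all tested genes, and its median ratio to the mean of control 2 and control 3 was 1.01.

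**Figure D3:**
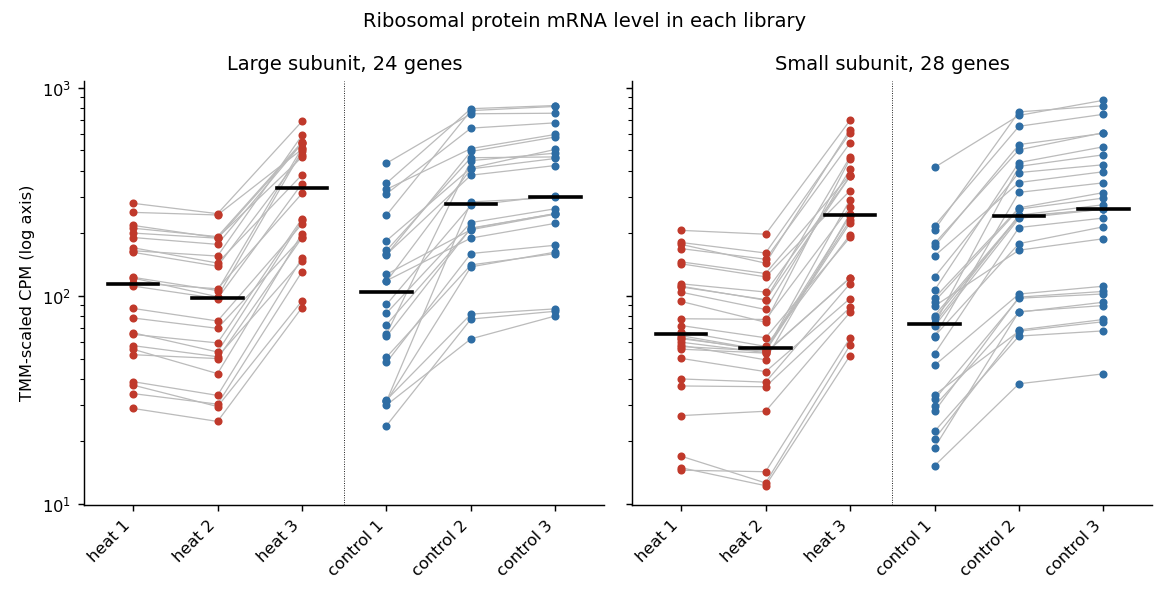
Level of each tested ribosomal protein gene (TMM-scaled CPM, log axis) in each library, large subunit at left and small subunit at right. Grey lines join the values of 1 gene within a group, and black bars mark the median. In every gene heat 3 lies above heat 1 and heat 2, and control 1 lies below control 2 and control 3.

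The proteins at the core of the large subunit had the following levels, in TMM-scaled CPM, which is the read count scaled to library size and not to gene length, so that levels are compared between libraries and not between genes. RPL4, which lines the exit tunnel for the growing peptide (chromosome 1, 164476269 to 164481765), had 278, 248 and 689 CPM in heat 1, 2 and 3, against 433, 749 and 754 CPM in control 1, 2 and 3. Heat 3 lay between control 1 and the other controls, and heat 1 and heat 2 lay below every control. Its means were 405 ± 246 CPM in heat and 645 ± 184 CPM in control, which is -0.67 ± 0.51 as log2 fold change (SE; edgeR adjusted p = 0.371). RPL3, which lies by the peptidyl transferase centre, had 252, 245 and 506 CPM in heat, against 165, 461 and 465 CPM in control. Here control 1 was the lowest of the 6 libraries and heat 3 the highest, and the log2 fold change was -0.12 ± 0.51.

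RPL5 and RPL11 form a particle with the 5S ribosomal RNA and are the members best known for binding MDM2. RPL5 (chromosome 4, 124359786 to 124367612) had 165, 155 and 590 CPM in heat, against 348, 792 and 820 CPM in control. RPL11 (chromosome 6, 81523510 to 81526925) had 112, 97.1 and 346 CPM in heat, against 117, 407 and 457 CPM in control. In both genes heat 3 passed control 1 and stayed below the other controls, but RPL5 in heat 1 and heat 2 was well below control 1, whereas RPL11 was nearly level with it. Their log2 fold changes were -1.11 ± 0.63 and -0.82 ± 0.67 (edgeR adjusted p = 0.248 and 0.404).

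RPL10 joins the large subunit late in its assembly and sits close to the P-site transfer RNA. Its gene (X chromosome, 124927249 to 124929791) had 116, 108 and 310.3 CPM in heat, against 31.2, 283 and 297 CPM in control. Control 1 was at 10.8% of the mean of the other controls, the lowest such value of the 52, so heat 1 and heat 2 lay 3.59-fold above control 1. The log2 fold change was -0.19 ± 0.79 (edgeR adjusted p = 0.881).

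RPLP0, RPLP1 and RPLP2 build the stalk that recruits the elongation factors. RPLP0 (chromosome 14, 40219196 to 40223943) had 200.3, 189 and 541 CPM in heat, against 65.5, 446 and 485 CPM in control. It shared with RPL10 a control 1 far below all other libraries, at 14.1% of the other controls. RPLP1 had 170.3, 144 and 382 CPM in heat, against 90.9, 272 and 303 CPM in control, and RPLP2 had 38.8, 33.3 and 152 CPM in heat, against 31.2, 138 and 162 CPM in control. The log2 fold changes of RPLP0, RPLP1 and RPLP2 were -0.098 ± 0.75, 0.063 ± 0.57 and -0.57 ± 0.76, none of which passed (edgeR adjusted p between 0.616 and 0.947). RPL28, a large-subunit protein that bacteria lack (chromosome 6, 59556586 to 59559337), had the highest estimate of all. It had 57.7, 51.1 and 147 CPM in heat, against 31.6, 81.8 and 86.7 CPM in control, so its highest library was a heat one and its lowest a control. The log2 fold change was 0.35 ± 0.54 (edgeR adjusted p = 0.664), and it was -0.31 without heat 3 and -0.0084 without control 1.

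In the small subunit, the lowest estimates belonged to RPS27L, RPS27A, RPS24 and RPS3A. RPS27L, a paralog of RPS27 known as a p53 target in human cells (chromosome 1, 108881330 to 108886334), had 17.0, 12.6 and 58.0 CPM in heat, against 29.6, 83.5 and 93.3 CPM in control. Heat 1 and heat 2 were below every control, and heat 3 lay between control 1 and the others. Its log2 fold change was -1.23 ± 0.67 (edgeR adjusted p = 0.226). With the replicate number as a block it was the single member called lower (edgeR adjusted p = 0.0352), against 9.13% of all genes in that fit. Whether the numbers pair the samples is not stated by the labels. RPS27A, made as a fusion with ubiquitin (chromosome 3, 85989609 to 85992257), had 111, 95.4 and 375 CPM in heat, against 173, 533 and 603 CPM in control, a log2 fold change of -1.17 ± 0.68. RPS24, whose human gene is mutated in Diamond-Blackfan anaemia, had 177, 144 and 628 CPM in heat, against 414, 736 and 869 CPM in control. RPS3A, a protein of the platform, had 169, 150.0 and 542 CPM in heat, against 208, 765 and 818 CPM in control. The log2 fold changes of RPS24 and RPS3A were -1.09 ± 0.63 and -1.06 ± 0.69 (edgeR adjusted p = 0.254 and 0.305).

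At the other end, RPS14, RPS9 and RPS3 had estimates above 0, as did RPLP1 and RPL28 of the large subunit. RPS14, the platform protein lost in the human 5q- syndrome (chromosome 2, 151430047 to 151433951), had 55.5, 53.1 and 122 CPM in heat, against 18.7, 84.1 and 89.9 CPM in control. Control 1 was the lowest library and heat 3 the highest, and the log2 fold change was 0.26 ± 0.61 (edgeR adjusted p = 0.782). RPS9 and RPS3, both at the entry of the messenger RNA channel, had 59.9, 53.4 and 122 CPM and 143, 124 and 320.0 CPM in heat, against 27.9, 98.7 and 105 CPM and 80.5, 242 and 261 CPM in control. All 3 genes had the same order, with control 1 lowest, heat 1 and heat 2 next, control 2 and control 3 above them, and heat 3 highest. The log2 fold changes of RPS9 and RPS3 were 0.023 ± 0.55 and 0.0089 ± 0.56.

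RPSA, the small-subunit protein also known as a laminin receptor precursor (chromosome 13, 24072551 to 24081536), had 181, 161 and 606 CPM in heat, against 73.2, 419 and 476 CPM in control. Like RPL10 and RPLP0, it was far lower in control 1 than in any other library, at 16.4% of the other controls. The log2 fold change was -0.031 ± 0.77 (edgeR adjusted p = 0.983). RPS4X, the X-linked RPS4 gene, had 206, 198 and 697 CPM in heat, against 217, 652 and 745 CPM in control, so that heat 1, heat 2 and control 1 were close and heat 3 lay between control 2 and control 3. Its log2 fold change was -0.55 ± 0.66. Under other scalings or tools the sign turned for RPS3, RPS9 and RPLP1 (below 0 with RLE factors) and for RPSA, RPLP0 and RPL10 (above 0 with limma-voom), and RPL28, RPS14 and RPL3 also changed sign when libraries were left out.

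Members differed in how far control 1, and heat 1 and 2, lay below the rest of their group. In control 1 the range ran from 10.8% of the other controls for RPL10, 14.1% for RPLP0 and 16.4% for RPSA to 57.4% for RPL35, 57.7% for RPL4 and 58.8% for RPL23. In heat 1 and 2 it ran from 18.5% of heat 3 for RPS15A to 48.1% for RPS15 and 49.0% for RPL3. The genes at the ends of these ranges were named after their values were seen, apart from RPL10, RPLP0, RPSA, RPL4 and RPL3. RPL23 was at 22.2% in heat 1 and 2 but at 58.8% in control 1, and RPL10 at 36.1% and 10.8%, so a gene that was low in the one was not always low in the other. Heat 1 and heat 2 were both above control 1 in 18 members and both below it in 31, against 48.0% and 45.4% of all tested genes. The 5 members whose levels over the 6 libraries were least like the median of the other members were RPS14, RPL10, RPL28, RPLP0 and RPS9.

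**Figure D4:**
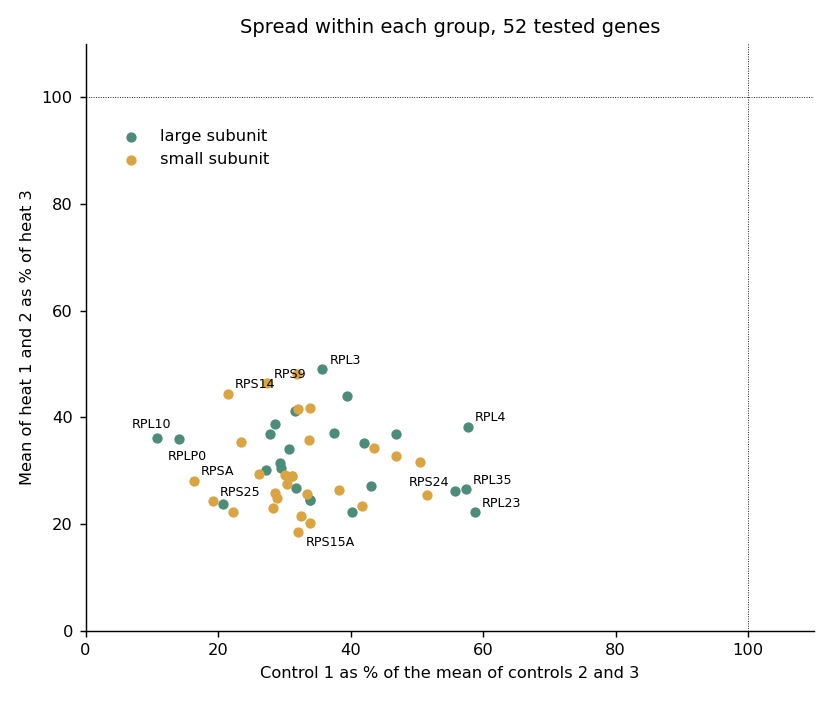
Each point is 1 of the 52 tested genes. The horizontal axis gives control 1 as a percentage of the mean of controls 2 and 3, and the vertical axis the mean of heat 1 and 2 as a percentage of heat 3. All points lie below 100% on both axes, from 10.8 to 58.8% across and from 18.5 to 49.0% upward.

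The balance of the subunits followed the same libraries. The ratio of small-subunit to large-subunit reads was 0.819, 0.811 and 0.959 in heat 1, 2 and 3, against 0.804, 0.943 and 0.970 in control 1, 2 and 3. It was lower in the 3 libraries with the lower shares of counts. The group means were 0.863 ± 0.0830 in heat and 0.906 ± 0.0891 in control (SD, n = 3 each), a difference smaller than either SD. By location the 54 genes were scattered over 15 chromosomes of Sscrofa11.1, at most 8 on any of them (chromosomes 1 and 6). Spans of 8 members overlap another annotated protein-coding gene, for example RPS2 with NDUFB10 and RNF151 and RPS14 with NDST1. Since no source used here says whether counting used strand, their reads are less certain. Ribosomal protein genes also have many processed copies in mammals, and no source used here says how reads that fit several copies were counted.

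Relatives of ribosomal proteins that the symbols leave out also had heat 3 above the other heat libraries. FAU, which encodes a small-subunit protein fused to a ubiquitin-like one, had 27.6, 22.5 and 96.6 CPM in heat, against 23.6, 92.3 and 104 CPM in control. RACK1, a scaffold bound to the small subunit, had 190, 181 and 495 CPM in heat, against 96.3, 299 and 332 CPM in control. Of 9 tested relatives none was called, and their median log2 fold change was -0.58. Heat 3 was above both other heat libraries in 9 of them and control 1 below both other controls in 8. RPL36AL, which encodes a protein nearly identical to that of RPL36A, can share reads with it.

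Mitochondrial ribosomal proteins, which serve the separate ribosome of the mitochondrion, shared the order of libraries with a smaller spread. Of 65 tested none was called, with a median log2 fold change of -0.32, and 8 had an unadjusted p below 0.05 in the edgeR test, a smaller share than the 33.9% of all tested genes. Heat 3 was above both other heat libraries in 61 and control 1 below both other controls in 61. Their median ratio of heat 3 to the mean of heat 1 and 2 was 1.94, against 3.42 for the cytosolic ribosomal proteins. MRPL17 and MRPS10, those with the highest mean CPM, stood at 32.5 ± 13.8 and 32.2 ± 15.7 CPM in heat, against 47.6 ± 16.9 and 52.5 ± 9.41 CPM in control.

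**Figure D5:**
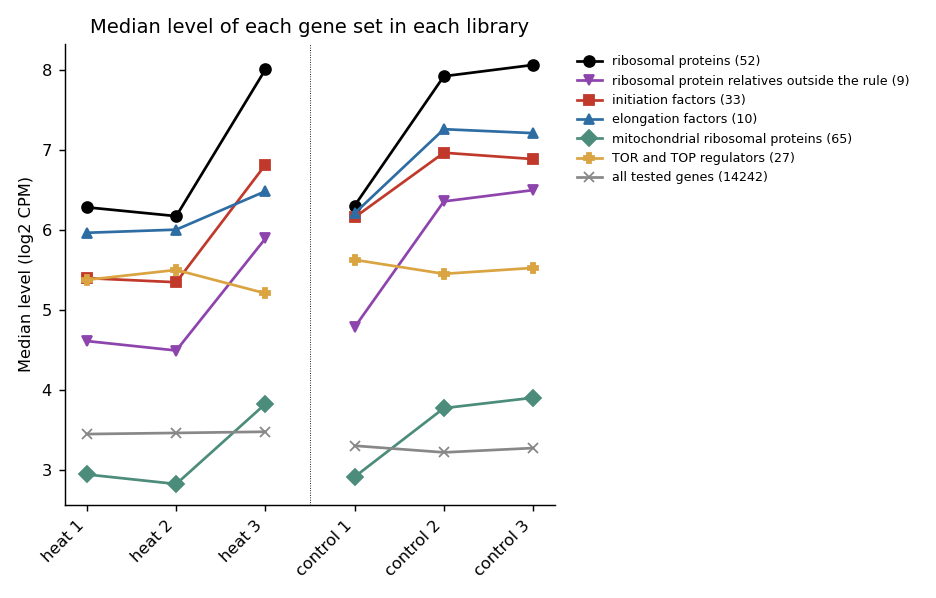
Median level (log2 CPM) of each gene set in each library, with the number of tested genes in brackets. Cytosolic ribosomal proteins stand at 6.29, 6.18 and 8.01 in heat 1, 2 and 3 and at 6.31, 7.92 and 8.07 in control 1, 2 and 3, while the median of all tested genes stays between 3.23 and 3.48. Lines join libraries of a group and imply no order.

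Among translation factors a single call was made. Of 33 tested initiation factors, EIF5B, which joins the subunits at the start codon, fell to 201 ± 45.9 CPM in heat, against 527 ± 104 CPM in control (SD, n = 3 each). Its log2 fold change was -1.39 ± 0.36 (edgeR adjusted p = 0.0483), and none of the other 32 was called, against 4.32% of all tested genes called lower. Heat 3 was above both other heat libraries in 28 of the 33. Of 10 tested elongation and release factors none was called, with 3 at an unadjusted p below 0.05 (all tested genes 33.9%). EEF2, which moves the ribosome along the message and has a TOP tract itself, had 916, 857 and 1345 CPM in heat, against 760, 936 and 1080 CPM in control. Its groups overlapped, and heat 3 was again the highest library. TPT1, another known TOP message, had 473, 407 and 1449 CPM in heat, against 1312, 1500 and 1738 CPM in control, so its control 1 was the lowest control but near the others, and heat 1 and heat 2 lay below every control. Of 22 tested genes known for TOP messages none was called (median log2 fold change -0.48, 4 at an unadjusted p below 0.05, against 33.9% of all tested genes), and heat 3 was above both other heat libraries in 21.

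Among regulators of TOR and of TOP messages, 1 of 27 rose and 1 fell, against 6.71% of all tested genes called higher and 4.32% called lower, so the counts do not exceed the background. AKT1S1, an inhibitory subunit of TOR complex 1, rose to 17.1 ± 1.80 CPM in heat, against 4.42 ± 1.42 CPM in control, which is 1.95 ± 0.34 on the log2 scale (SE; edgeR adjusted p = 0.0276). RICTOR, the defining subunit of TOR complex 2, fell to 27.9 ± 7.89 CPM in heat, against 80.9 ± 18.8 CPM in control (log2 fold change -1.54 ± 0.34, edgeR adjusted p = 0.0385). The calls of AKT1S1, RICTOR and EIF5B were lost without control 2, control 3, heat 1 or heat 2, where the edgeR adjusted p lay between 0.133 and 0.194. They were also lost with the alike libraries summed, where the edgeR adjusted p lay between 0.260 and 0.507. Of all genes, 7 were called without heat 1, 6 without heat 2, none without control 2 or control 3, and 2 with alike libraries summed. The loss in these fits therefore says little about the named genes. With library totals as the only scaling RICTOR and EIF5B were not called (edgeR adjusted p = 0.0524 and 0.0558), and without a filter on low counts EIF5B was not (0.0654). LARP1, which binds TOP tracts, had 166, 174 and 168 CPM in heat, against 136, 43.8 and 50.03 CPM in control, and did not pass (log2 fold change 1.14 ± 0.47, edgeR adjusted p = 0.134). MTOR, the kinase itself, had 55.2, 57.2 and 56.1 CPM in heat, against 49.5, 19.2 and 20.3 CPM in control (edgeR adjusted p = 0.162). In both genes every heat library was above every control, as in 20.9% of all tested genes, and control 1 was the nearest control. The set had a median log2 fold change of -0.05, and its library medians lay between 5.21 and 5.63 log2 CPM. Of 7 tested genes from a list of chaperones that bind ribosomal proteins or the ribosome none was called. In the edgeR test 1 had an unadjusted p below 0.05 (all tested genes 33.9%). BTF3 and BCCIP, those with the highest mean CPM, stood at 91.7 ± 66.1 and 31.0 ± 14.4 CPM in heat, against 179 ± 65.3 and 41.3 ± 0.794 CPM in control.

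Other quantities also differed between libraries of a group, some in the order of ribosomal protein messages and others in the opposite or a mixed order. Their part in the level of these messages was not tested. The summed level of 7 matched stromal markers, which include the collagens COL1A1, COL1A2 and COL3A1, was 85730, 83640 and 31040 CPM of deposited counts in heat 1, 2 and 3, against 47260, 7521 and 7220 in control 1, 2 and 3. All 7 were read in every library, and their sum was lower in heat 3 than in heat 1 and heat 2, and higher in control 1 than in control 2 and control 3. The 12 matched granulosa markers summed to 1019, 963 and 744 CPM of deposited counts in heat, against 1058, 567 and 506 in control. This sum had the same order of heat 3 and control 1, and CDH2 gave its largest part in every library. Of the 6 tested markers, by TMM-scaled CPM, heat 3 was below both other heat libraries in 3 and above both in 1. Control 1 was above both other controls in 5. The 3 matched markers of surface epithelium summed to 62.3, 102.5 and 10.4 in heat, against 14.2, 2.79 and 4.54 in control. Their sum was again lowest in heat 3 and highest in control 1 within the groups. By TMM-scaled CPM, heat 3 was below both other heat libraries in all 3, and control 1 above both other controls in 2. The sum of the 5 smooth muscle markers ran the other way, with 6788, 7088 and 16240 in heat, against 8185, 10120 and 11050 in control. Single markers were mixed in control. By TMM-scaled CPM, heat 3 was above both other heat libraries in 4 of the 5, but control 1 was above both other controls in 3. The TMM-scaled sums of control 1, 2 and 3 were nearly level, at 10240, 9984 and 10250 CPM. All markers of the surface epithelium and smooth muscle lists that matched were read in every library. The 13 protein genes of the mitochondrial genome took 7.94, 7.49 and 5.04% of counts in heat, against 25.3, 14.3 and 12.4% in control, again highest in control 1 and lowest in heat 3 within their groups. Identifiers with no symbol took 11.7, 10.1 and 14.2% in heat, against 7.22, 19.9 and 22.3% in control. The 9 leukocyte markers summed to 4.28, 2.94 and 1.45 CPM of deposited counts in heat 1, 2 and 3, against 2.72, 36.5 and 76.7 in control 1, 2 and 3. PTPRC, LAPTM5 and TYROBP were at 0 in every heat library, heat 3 included. In control 1, PTPRC and TYROBP also had 0 reads and LAPTM5 had 1.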

How the data were processed

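The deposited count table gives raw reads per Ensembl gene for each library, as counted by the authors. Per the submitters' processing notes the tools included FastQC 0.11.4, Trim Galore and STAR, with the Sscrofa11.1 assembly. No source used here gives the counting tool, its strand setting, the annotation or the normalization tool. A second deposited table holds a normalized signal for 13298 genes, which is the counts divided by 1 factor per library. Multiplied back, 100% of its values were whole within 1e-06 and equalled the deposited counts, and edgeR on these reads called 1631 of 13208 genes (981 higher, 650 lower).

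The gene name table gave a symbol to 15623 identifiers, and RefSeq genes on Sscrofa11.1 gave coordinates by symbol. After edgeR's filterByExpr (minimum count 10), 14242 of 35670 identifiers were tested. Heat was set against control with edgeR 4.0.16 (R 4.3.3): TMM factors, no covariates, two-sided quasi-likelihood tests, called at an adjusted p below 0.05 (Benjamini-Hochberg, all tested genes). Each SE was obtained from the estimate and its F statistic. The scripts were tested on simulated data. Between 18711440 and 29606378 counts per library made counting error small beside the spread between libraries. Intervals cover counting error only, since PCR reads without molecular identifiers are not independent molecules.

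Members and lists were chosen with earlier results of these data known. The text names the 5 members with the highest and the 5 with the lowest log2 fold change, the 5 least like the others across libraries, fixed members and regulators, and for each translation list its called genes or otherwise those with the highest mean. Naming by level per coding length was not done, as no coding lengths were used. Values of some genes that the rule names are not reported here. Alternatives were other scalings and filters, DESeq2 1.42.0, limma 3.58.1 (voom, and on the normalized signal with pseudocounts of 1 and 0.5), a replicate block, libraries left out, and alike libraries summed. The recovered reads were an alternative chosen after seeing the data.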

Additional observations from a re-analysis of the deposited data

How the results depend on the processing

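The SE of the ribosomal protein genes (median 0.65, against 0.44 for all tested genes) limits what can be called, and the values turn on which libraries are kept. No ribosomal protein gene was called higher under any alternative run. The count called lower, 0 in the main comparison, was 52 with control 1 and heat 3 both left out, and 0 to 16 with single libraries left out (16 without heat 3). The median log2 fold change was then -1.78 (large subunit -1.74, small subunit -1.85) with both left out, and -1.45 to -0.24 (large -1.45 to -0.23, small -1.47 to -0.25) with single ones left out. It was -0.08 with the alike libraries summed. The heat minus control difference in the share of counts was -1.28 percentage points with both left out and -0.855 to -0.122 with single libraries left out, and that of the small-to-large ratio was -0.141 and -0.0934 to -0.0103. With counts of nuclear genes that have a symbol as denominator, the difference in share was -0.90 percentage points, against -0.42 in the main comparison.

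Library totals as the only scaling moved the median of all genes to 0.17, against 0.05, with 1583 genes called higher and 416 lower (79.2% higher), against 956 and 615 (60.9%). Relative to all genes the ribosomal protein median was then -0.66, against -0.62.

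Of the 161 translation genes, 1 was called higher. This count was 2 with upper-quartile scaling, 4 with totals only, 2 with no filter, 3 with the 10 CPM filter, 6 with DESeq2, 3 with limma-voom, 3 with limma on the normalized signal at either pseudocount, 2 with recovered reads, 0 with alike libraries summed, 25 with control 1 and heat 3 left out and 0 to 12 with single libraries left out. The count called lower, 2 in the main comparison, was 0 with totals only, 18 with DESeq2, 5 with limma on the normalized signal at either pseudocount, 0 with alike libraries summed, 112 with both left out and 0 to 53 with single libraries left out. All genes in these fits were called higher and lower in 14.9% and 12.6% with DESeq2, 18.4% and 17.7% without heat 3, 19.6% and 12.3% without control 1, and 41.2% and 38.4% with both left out. With alike libraries summed, 0.0129% of all genes were called higher and none lower. Without control 2, control 3, heat 1 or heat 2, at most 0.0475% were called higher and none lower. The cause of these changes in the counts was not tested.

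The labels do not say whether the replicate numbers pair the samples. Same-numbered deviations from the group mean correlated at 0.299, -0.232 and 0.2227, and differently numbered ones between -0.2962 and 0.2868. These values overlap, and with alike libraries in each group they cannot decide whether the number marks a pair. With that number as a block, edgeR called 1 ribosomal protein gene lower (RPS27L, adjusted p = 0.0352), and 7 of the translation genes higher and 22 lower, against 14.8% and 9.13% of all genes. Log2 fold changes that changed sign under the block were those of RPLP0 (0.18), RPSA (0.11) and RPL10 (0.17).

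Other log2 fold changes also changed sign. With control 1 and heat 3 left out these were RPL28 (-0.65), RPS14 (-0.70), RPLP1 (-0.89), RPS9 (-0.87), RPS3 (-0.94), EEF2 (-0.21) and RACK1 (-0.79). RLE scaling and DESeq2 each gave -0.0051 for RPLP1, -0.043 for RPS9 and -0.059 for RPS3, and upper-quartile scaling gave -0.019 for RPS3. limma-voom gave 0.19 for RPLP0, 0.093 for RPSA and 0.20 for RPL10, and limma on the normalized signal gave 0.18, 0.089 and 0.19 at either pseudocount. Summing alike libraries gave 0.44 for RPLP0, 0.017 for RPLP2, 0.54 for RPSA, 0.23 for RPL3 and 0.36 for RPL10. RPSA was 0.027 with totals only, 0.016 with no filter and 0.015 with the 10 CPM filter. With single libraries left out the range was -0.31 to 0.62 for RPL28, -0.26 to 0.54 for RPS14, -0.51 to 0.32 for RPLP1, -0.46 to 0.27 for RPS9, -0.78 to 0.24 for RPLP0, -0.93 to 0.33 for RPSA, -0.56 to 0.26 for RPS3, -0.56 to 0.066 for RPL3, -0.88 to 0.14 for RPL10, -0.078 to 0.30 for EEF2 and -0.40 to 0.51 for RACK1.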
